A study of Mus musculus with 8 samples.

Results

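The prostaglandin genes described here are 10 mouse genes, Pla2g4a, Ptgs1, Ptgs2, Ptges, Ptges2, Ptges3, Abcc4, Slco2a1, Hpgd and Ptger4, taken by symbol from the 55416 gene identifiers of the series because they release the precursor of prostaglandin E2, make it, export it, import it, break it down or bind it. Ptgs1 is in the set because the title of the series names it. Each of the 10 symbols matched 1 identifier, and 8 of the 10 had enough reads to enter the test, with Ptgs1 and Ptges below its minimum.

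Prostaglandin E2 is made in steps. A phospholipase A2 frees arachidonic acid from membranes, a cyclooxygenase turns it into prostaglandin H2, and a prostaglandin E synthase isomerises that to prostaglandin E2. The product leaves the cell through an ABC transporter, acts on surface receptors of the EP family, and is cleared by uptake and oxidation. In the intestine prostaglandin E2 is known as a signal for repair of the epithelium after injury, and one cyclooxygenase gene is classed as constitutive and the other as inducible.

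The cells were small intestinal organoids, cultures of intestinal epithelium grown in IntestiCult medium, of C57BL/6 mice aged 4 to 8 weeks that were Tg/Tg for Rosa26-rtTA, the doxycycline-responsive activator, and Tg/Tg as well for Col1A1-TetO-OSKM, the 4 reprogramming factors under its control. Irradiated (IR) and control organoids all carried these alleles, and the labels do not say that the cassette was switched on. There were 4 groups of 2 libraries: IR (6 Gy of X-ray) at day 4, control at day 4, IR at day 7 and control at day 7. The labels leave unstated the event that day 4 and day 7 follow and whether the libraries of a group came from separate cultures or animals, so p-values measure only the spread between these libraries, which may be technical.

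The 8 poly-A libraries held 7541760 to 16054300 expected counts each. Mitochondrial transcripts took 12.9% to 27.6% of them, most in IR day 4 replicate 2, and leaving these transcripts out ended no call and made none for the 8 tested genes. All 8 listed p53 target genes were higher in IR than in control organoids at day 4 and 5 of 8 at day 7; Cdkn1a was at 224 and 274 CPM in IR and 59.8 and 84.1 CPM in control organoids at day 4. All 6 epithelial markers were detected in every library, with summed levels of 5610 to 6770 CPM in IR and 3770 to 3790 CPM in control organoids at day 4. Markers of other cell types summed to 18.7 to 40.4 CPM (immune), 1.87 to 3.6 CPM (mesenchymal) and 1.4 to 5.44 CPM (endothelial) over the 8 libraries, and 3 of 14, 1 of 11 and 2 of 7 of them were at 0 in all 8.

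The RefSeq promoters (GRCm38.p6) of 4 of the genes are printed because Ptgs1 is the gene of the title and Ptgs2, Hpgd and Slco2a1 are the members called higher in IR organoids on both days. Each runs from 250 bases before to 50 bases after the annotated start, read 5′ to 3′ on the gene's strand, and all 4 genes lie on the plus strand. They are chr2:36230176-36230475 for Ptgs1, chr1:150099781-150100080 for Ptgs2, chr8:56294302-56294601 for Hpgd and chr9:103008237-103008536 for Slco2a1. Capitals mark matches on either strand to 6 motifs. The core promoter box was searched as TATAAA. The element bound by AP-1 factors was searched as TGANTCA, and the element that responds to cyclic AMP as TGACGTNA. The kappa B motif was taken as GGG, any 5 bases and then CC, so that it can overlap a match of another motif. The E-box of helix-loop-helix factors was searched as CACGTG, and the box bound by Sp1 as GGGCGG.
Ptgs1: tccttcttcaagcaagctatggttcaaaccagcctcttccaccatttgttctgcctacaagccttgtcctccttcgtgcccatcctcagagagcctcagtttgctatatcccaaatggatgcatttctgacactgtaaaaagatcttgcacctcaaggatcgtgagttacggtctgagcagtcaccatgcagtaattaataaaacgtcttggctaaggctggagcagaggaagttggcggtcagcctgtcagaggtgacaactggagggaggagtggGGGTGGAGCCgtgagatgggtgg
Ptgs2: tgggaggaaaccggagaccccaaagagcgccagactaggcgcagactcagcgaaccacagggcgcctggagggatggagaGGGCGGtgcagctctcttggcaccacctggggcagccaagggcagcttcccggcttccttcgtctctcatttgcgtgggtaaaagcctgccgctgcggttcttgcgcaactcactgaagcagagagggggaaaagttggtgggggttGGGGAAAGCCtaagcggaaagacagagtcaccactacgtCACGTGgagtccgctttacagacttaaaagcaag
Hpgd: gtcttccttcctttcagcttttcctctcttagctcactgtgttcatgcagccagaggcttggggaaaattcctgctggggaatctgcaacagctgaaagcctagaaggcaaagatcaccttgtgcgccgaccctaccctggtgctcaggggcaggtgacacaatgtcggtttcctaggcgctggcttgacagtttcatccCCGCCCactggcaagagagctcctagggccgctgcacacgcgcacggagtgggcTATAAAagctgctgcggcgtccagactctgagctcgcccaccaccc
Slco2a1: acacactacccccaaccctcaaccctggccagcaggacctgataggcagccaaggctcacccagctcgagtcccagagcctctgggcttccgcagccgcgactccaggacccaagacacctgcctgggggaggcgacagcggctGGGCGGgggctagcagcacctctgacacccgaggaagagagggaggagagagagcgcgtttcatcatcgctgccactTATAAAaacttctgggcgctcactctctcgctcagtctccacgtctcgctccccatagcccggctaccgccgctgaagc

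The Ptgs2 window held CACGTG at bases 17 to 22 after the start, GGGGAAAGCC, a kappa B match, at -23 to -14 and GGGCGG at -170 to -165. The Slco2a1 window held TATAAA at -29 to -24 and GGGCGG at -106 to -101. In Hpgd, TATAAA stood at 5 to 10, after the annotated start, and GGGCGG on the opposite strand at -50 to -45. Of the 6 motifs the Ptgs1 window held 1, GGGTGGAGCC, a kappa B match at 28 to 37. Over 32851 mouse promoters of the same length, these letters occurred in 13.6% (TATAAA), 50.8% (kappa B), 7.15% (CACGTG) and 35.7% (GGGCGG). The AP-1 letters (7.81% of all promoters) and the cyclic AMP response element letters (2.93%) were in none of the 12 windows annotated for the 10 genes. Only exact letters were counted. The Ptgs2 window reads ctacgtCA into its CACGTG match, 1 base off the cyclic AMP letters on the opposite strand, and this was not marked. These matches describe letters in a window and were not tested against the expression values. Pla2g4a and Ptgs2 are neighbours on chromosome 1, with 0 protein-coding genes between them in the GENCODE annotation of GRCm38.

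On the length-scaled TPM scale of transcript abundance, the 10 genes spanned from Ptges3, at 97.2 to 185 TPM over the 8 libraries, down to Ptgs1, at 0.05 to 0.47 TPM, and Ptges, at 0 to 0.73 TPM. By median TPM the order was Ptges3 (153), Hpgd (33.2), Ptges2 (18.3), Pla2g4a (9.82), Abcc4 (8.57), Ptger4 (3.25), Slco2a1 (1.23), Ptgs2 (1.11), Ptgs1 (0.20) and Ptges (0.195). Of neighbours in this order, only Ptges3 and Hpgd had ranges over the libraries that did not overlap. Both cyclooxygenase genes stood in the lower part of the order in these epithelial cultures, and the prostaglandin-degrading enzyme Hpgd near its top. Within single libraries the TPM of Hpgd was 11.6 to 290 times that of Ptgs2, and the ratio was 27.7 and 67.7 in IR and 290 and 66.5 in control organoids at day 4, then 12.9 and 11.6 in IR and 21.0 and 47.6 in control organoids at day 7. The ratio of 290, in control day 4 replicate 1, rests on 2 reads of Ptgs2 (0.05 TPM). At day 7 the ratio was lower in both IR libraries than in both control libraries, and at day 4 the groups overlapped.

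**Figure D1:**
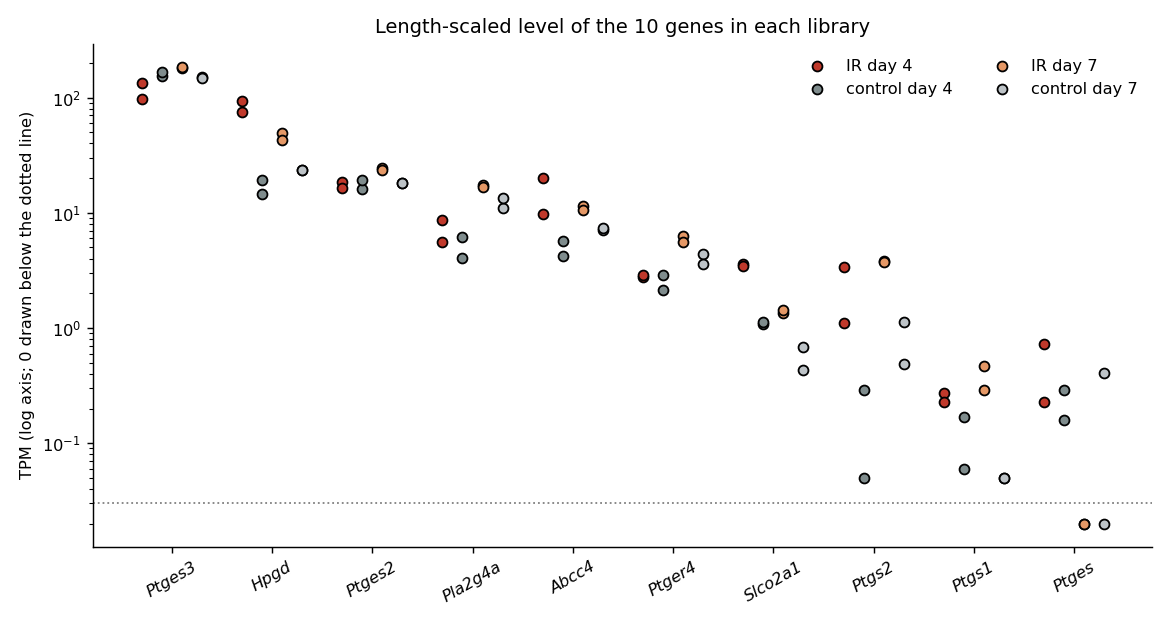
TPM (log axis, values of 0 drawn below the dotted line) of the 10 prostaglandin genes in the 8 libraries, 2 per group, ordered by median. Ptges3 lies at 97.2 to 185 TPM above all others, and Ptgs1 and Ptges stay below 1 TPM in every library.

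At day 4 the irradiated organoids had higher levels of 5 of the 8 tested genes, Ptgs2, Hpgd, Slco2a1, Abcc4 and Pla2g4a, and a lower level of Ptges3, while Ptges2 and Ptger4 did not pass the test (edgeR quasi-likelihood test, called at Benjamini-Hochberg adjusted p under 0.05 over 14063 genes). Over all genes tested 36.5% were called at day 4, 20.0% higher and 16.5% lower in IR organoids. The median log2 fold change of IR over control was 1.16 over the 8 genes and 0.00 over all genes. The genes were chosen with earlier results of these data known. Their counts and medians on either day therefore describe these genes and do not test the pathway. At day 7 Ptgs2, Hpgd and Slco2a1 were higher in IR organoids and the other 5 tested genes did not pass, against 8.65% of all genes called, 4.70% higher and 3.95% lower, with a median of 0.45 over the 8 genes and 0.00 over all genes. The day 7 count was 0 without control day 7 replicate 1 or 2, 1 without IR day 7 replicate 1 or 2, 1 on either log2 TPM scale, and 8 when the 4 libraries of day 7 were fitted alone. The share of all genes called is given for the main fit only, so the count of 8 has no share of its own fit beside it. The libraries of the IR and control groups did not overlap in any of the 8 genes at day 4, nor at day 7. Neither did those of 65.2% of all genes at day 4 and 65.9% at day 7. In bulk organoids, fewer cells of a type and less RNA per cell cannot be told apart.

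**Figure D2:**
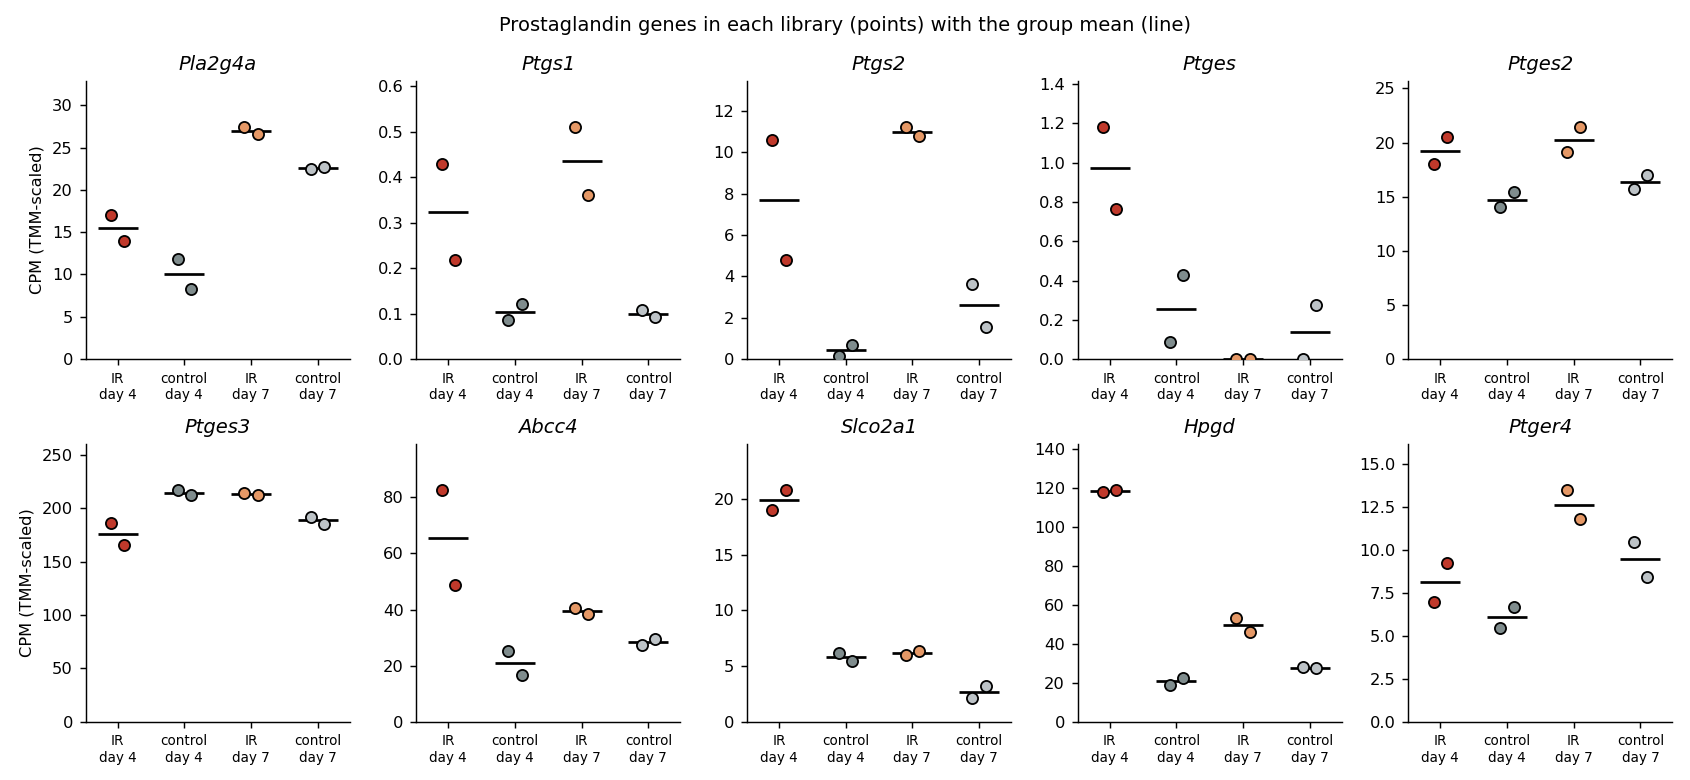
TMM-scaled read counts per library size (CPM) of the 10 genes, 1 panel per gene with its own axis from 0, with a point for each of the 2 libraries of a group and a line at their mean. Hpgd reaches 118 and 119 CPM in IR organoids at day 4 against 18.7 and 22.7 CPM in control organoids, and Ptgs2 is higher in every IR library (4.79 to 11.2 CPM) than in every control library (0.17 to 3.65 CPM).

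Pla2g4a (ENSMUSG00000056220) encodes cytosolic phospholipase A2, which releases arachidonic acid from membrane phospholipids. It was at 17.0 and 14.0 CPM in IR and 11.8 and 8.23 CPM in control organoids at day 4, and at 27.4 and 26.6 CPM in IR and 22.5 and 22.7 CPM in control organoids at day 7. Both IR libraries were higher than both control libraries on each day. The log2 fold change was 0.64 ± 0.18 at day 4 (SE, adjusted p = 0.0187) and 0.25 ± 0.17 at day 7 (adjusted p = 0.383). The day 4 call ended without control day 4 replicate 2 (log2 fold change 0.38, adjusted p = 0.12) or IR day 4 replicate 1 (0.49, adjusted p = 0.098), with only the groups compared (0.63, adjusted p = 0.0848), and on log2(TPM + 1) and log2(TPM + 0.1) (0.40 and 0.46, adjusted p = 0.28 and 0.267). Pla2g4a was also higher at day 7 than at day 4. Its level at day 7 was 1.74-fold that at day 4 in IR organoids (95% interval 1.33 to 2.27, adjusted p = 0.00677) and 2.28-fold in control organoids (1.74 to 2.99, adjusted p = 0.00936), the second losing its call without control day 7 replicate 1 or 2 (adjusted p = 0.101 and 0.117) and on the 2 TPM scales (0.107 and 0.104).

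Ptgs1 (ENSMUSG00000047250), the constitutive cyclooxygenase and the gene of the title, drew 19 reads in all 8 libraries together. Its raw counts were 4 and 2 in IR and 1 and 2 in control organoids at day 4, and 5 and 3 in IR and 1 and 1 in control organoids at day 7. The deposited TPM values were 0.27 and 0.23 in IR and 0.17 and 0.06 in control organoids at day 4, and 0.29 and 0.47 in IR and 0.05 and 0.05 in control organoids at day 7. IR libraries were at the higher end on both days, at values where 1 read is worth 0.061 to 0.12 CPM. The ratio of summed counts scaled for library size was 3.04 at day 4 (6 against 3 reads, 95% exact interval 0.65 to 18.8) and 4.46 at day 7 (8 against 2 reads, 0.89 to 43.1), so on neither day was a difference detectable at this depth; the intervals cover counting error only. Fitted by edgeR without the filter on low counts, the adjusted p was 0.583 at day 4 and 0.563 at day 7.

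Over both days together, Ptgs1 had 14 reads in the 4 IR libraries and 5 in the 4 control libraries, a ratio of 3.7 with a counting interval of 1.26 to 13.1. All 4 IR libraries (0.218 to 0.51 CPM) lay above all 4 control libraries (0.0852 to 0.122 CPM), a separation in this direction that 12.5% of the 14063 tested genes also had. At day 4 replicate 2 of IR and replicate 2 of control organoids both had 2 reads (0.218 and 0.122 CPM), so their order rests on library size alone. This pooling of the days was chosen after the values were seen. Leaving out each library in turn gave ratios of 3.25 to 4.23. Ptgs1 is known as a gene of tuft cells in the mouse intestine. The tuft cell markers summed to 328 to 363 CPM in IR and 359 to 382 CPM in control organoids at day 4, most of it Cd24a. Without Cd24a their sum was lower in IR organoids, at 3.66 to 5.01 CPM in IR and 20.7 to 21.5 CPM in control organoids at day 4 and at 4.93 to 6.12 CPM in IR and 8.37 to 10.4 CPM in control organoids at day 7. Of the 8 tuft cell markers tested, 7 were called lower in IR organoids at day 4 by edgeR and 5 by DESeq2. At day 7, 0 were called by edgeR (0 at an unadjusted p under 0.05 and 0 by DESeq2). The part of these markers in the Ptgs1 counts was not tested.

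Ptgs2 (ENSMUSG00000032487), the inducible cyclooxygenase, had the largest fold change of the 8 tested genes on both days in the edgeR fit of counts; on log2(TPM + 1) at day 4 it was at 1.38 and Hpgd at 2.25. Its raw counts were 99 and 44 in IR and 2 and 11 in control organoids at day 4, and 110 and 90 in IR and 34 and 17 in control organoids at day 7. In CPM these were 10.6 and 4.79 in IR and 0.17 and 0.671 in control organoids at day 4, and 11.2 and 10.8 in IR and 3.65 and 1.56 in control organoids at day 7. All 4 IR libraries stood above all 4 control libraries. The fold change was 16.6 at day 4 (95% interval 6.14 to 44.9, adjusted p = 0.00156) and 4.29 at day 7 (1.93 to 9.53, adjusted p = 0.0403). The size of the day 4 value depended on single libraries: on the log2 scale it was 4.05, against 5.39 without control day 4 replicate 2 (adjusted p = 0.00903) and 3.35 without IR day 4 replicate 1 (adjusted p = 0.00175), and it passed with each library left out.

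The Ptgs2 call at day 7 ended whenever 1 of the 4 day 7 libraries was left out, while its log2 fold change of 2.10 became 2.80 and 1.58 without control replicate 1 and 2 (adjusted p = 0.0962 and 0.221), and 2.12 and 2.16 without IR replicate 1 and 2 (adjusted p = 0.175 and 0.191). On the log2(TPM + 1) scale the day 7 value was 1.42 with adjusted p = 0.0762, and on the log2(TPM + 0.1) scale 2.19 with adjusted p = 0.147. The effect at day 7 less that at day 4 was -1.95 ± 0.84 on the log2 scale (adjusted p = 0.177), and on log2(TPM + 1) it was 0.04, so its sign depended on the scale; with a library left out it was -3.29 to -1.23 and did not pass, and without the filter on low counts it passed (-1.85, adjusted p = 0.00673). In control organoids Ptgs2 was at 3.65 and 1.56 CPM at day 7 and 0.17 and 0.671 CPM at day 4, without overlap and below the threshold (log2 fold change 2.47 ± 0.70, adjusted p = 0.112); without either IR day 4 library it passed (adjusted p = 0.0258 and 0.0273), as it did in DESeq2 (0.0061) and without the filter on low counts. The control value was 3.81 without control day 4 replicate 2, 1.76 without control day 7 replicate 1, and 0.61 and 1.81 on log2(TPM + 1) and log2(TPM + 0.1), none of which passed. In IR organoids, day 7 against day 4 did not pass (0.51 ± 0.45, adjusted p = 0.419). The antisense transcript Ptgs2os had 0 counts in all 8 libraries.

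Of the 3 prostaglandin E synthases, Ptges3, also the HSP90 co-chaperone p23, made up 85.4% to 90.4% of their summed TPM in every library, and Ptges2 most of the rest. The inducible microsomal synthase Ptges (ENSMUSG00000050737) had 11 and 7 reads in IR and 1 and 7 in control organoids at day 4. At day 7 it had 0 and 0 reads in IR and 0 and 3 in control organoids. At day 4, 1 library of each group had 7 reads, and at day 7 the reads in both groups were at or under the floor of 3, so no fold of IR over control is given for day 7. At day 4 the ratio of summed counts was 3.43 (18 against 8 reads, counting interval 1.42 to 9.1) and edgeR without the filter gave adjusted p = 0.204. In IR organoids Ptges had 0 reads at day 7 and 18 at day 4, with a counting interval of the ratio of 0 to 0.232. Taking 3 reads over the 2 libraries as the floor made it 5.88-fold lower at day 7, with no error allowed for the 18 reads. Fitted by edgeR without the filter, the adjusted p was 0.0021. For Hpgd at day 4 that run gave adjusted p = 1.67e-88, against 5.43e-07 in the main edgeR fit, so its value for Ptges is not read as a call. Ptges TPM values at these depths did not follow the counts: 0.23 TPM for 7 reads in IR day 4 replicate 2 and 0.41 TPM for 3 reads in control day 7 replicate 2.

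Ptges2 (ENSMUSG00000026820), named membrane-associated prostaglandin E synthase 2, was at 18.0 and 20.5 CPM in IR and 14.0 and 15.4 CPM in control organoids at day 4. At day 7 it was at 19.1 and 21.4 CPM in IR and 15.7 and 17.0 CPM in control organoids. All 4 IR libraries were above all 4 control libraries, with log2 fold changes of 0.39 ± 0.14 at day 4 (adjusted p = 0.052) and 0.31 ± 0.14 at day 7 (adjusted p = 0.204). Neither passed the threshold in the main fit. The day 4 value was -0.01 on the log2(TPM + 1) scale, where the median of all genes was -0.17. It was 0.46 without IR day 4 replicate 1. In edgeR it passed under the stricter filter (0.41, adjusted p = 0.0366) and with the replicate block (0.39, adjusted p = 0.038). The day 7 value passed with only the groups compared (0.30, adjusted p = 0.0462).

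Ptges3 (ENSMUSG00000071072) was at 186 and 166 CPM in IR and 217 and 212 CPM in control organoids at day 4, lower in both IR libraries. At day 7 it was at 214 and 212 CPM in IR and 192 and 185 CPM in control organoids, higher in both IR libraries. The level in IR organoids was 0.822 of that in control organoids at day 4 (95% interval 0.727 to 0.929, adjusted p = 0.0188) and 1.13 times it at day 7 (0.998 to 1.28, adjusted p = 0.2). The effect at day 7 less that at day 4 was 0.46 ± 0.11 on the log2 scale (adjusted p = 0.0314). In IR organoids the level was 1.21-fold higher at day 7 than at day 4 (adjusted p = 0.0251). The day 4 call ended without IR day 4 replicate 2 (log2 fold change -0.21, adjusted p = 0.0549), with only the groups compared (-0.29, adjusted p = 0.116), and on log2(TPM + 1) and log2(TPM + 0.1) (-0.48 and -0.49, adjusted p = 0.0701 and 0.0695). That between the effects ended without control day 4 replicate 2 (adjusted p = 0.0508), control day 7 replicate 1 or 2 (0.119 and 0.147) or IR day 7 replicate 1 or 2 (0.0941 and 0.0948), and on both TPM scales (0.106 on each). That between the days in IR organoids ended without IR day 4 replicate 2 (0.0764) or IR day 7 replicate 1 or 2 (0.0844 and 0.0807), and in DESeq2 (0.0522). Estimated counts of Ptges3 were not whole, and its processed pseudogene Ptges3-ps held 3068 reads over the 8 libraries, so reads may be divided between them. Ptges3-ps was at 85.8 to 149 TPM. Its log2 fold change of IR over control was -0.21 at day 4 and -0.31 at day 7, neither called (edgeR, adjusted p = 0.269 and 0.192).

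Abcc4 (ENSMUSG00000032849), also called MRP4, is an ABC transporter that exports prostaglandins. It was at 82.6 and 48.7 CPM in IR and 25.1 and 16.5 CPM in control organoids at day 4. At day 7 it was at 40.6 and 38.5 CPM in IR and 27.3 and 29.6 CPM in control organoids. All 4 IR libraries lay above all 4 control libraries, and the 2 IR libraries of day 4 were the highest of the 8. Its level was 3.19-fold higher in IR organoids at day 4 (95% interval 2.01 to 5.06, adjusted p = 0.00396), and the fold of 1.39 at day 7 did not pass (0.871 to 2.22, adjusted p = 0.351). The day 7 value passed with only the groups compared (log2 fold change 0.47, adjusted p = 8.81e-05) and without the filter on low counts (0.53, adjusted p = 0.00535). The effect at day 7 less that at day 4 was -1.20 ± 0.40 on the log2 scale (adjusted p = 0.108); it passed without IR day 4 replicate 2 (-1.53, adjusted p = 0.00847), in DESeq2 (-1.17, adjusted p = 0.0118) and without the filter on low counts. In IR organoids, day 7 against day 4 gave -0.73 ± 0.27 (adjusted p = 0.0831), and passed without IR day 4 replicate 2 (-1.05, adjusted p = 0.00568), in DESeq2 (-0.72, adjusted p = 0.0151), with the replicate block and without the filter.

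Slco2a1 (ENSMUSG00000032548), the prostaglandin transporter that carries prostaglandins into cells for breakdown, was at 19.0 and 20.8 CPM in IR and 6.14 and 5.49 CPM in control organoids at day 4. At day 7 it was at 6.02 and 6.38 CPM in IR and 2.15 and 3.22 CPM in control organoids. Within each day the IR libraries were higher, but the IR libraries of day 7 were level with the control libraries of day 4. The fold change was 3.43 at day 4 (95% interval 2.54 to 4.63, adjusted p = 9.9e-05) and 2.28 at day 7 (1.58 to 3.3, adjusted p = 0.0156). The day 7 call ended without any 1 of the 4 day 7 libraries, with adjusted p of 0.173 and 0.062 without control replicate 1 and 2 and 0.0905 and 0.121 without IR replicate 1 and 2, and it also ended on log2(TPM + 1) and log2(TPM + 0.1) (0.62 and 1.21, adjusted p = 0.242 and 0.188).

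Slco2a1 was lower at day 7 than at day 4 with and without irradiation. In IR organoids the level at day 7 was 0.311 of that at day 4 (95% interval 0.229 to 0.424, adjusted p = 0.000359) and in control organoids 0.469 of it (0.328 to 0.67, adjusted p = 0.0383). The control value lost its call without control day 4 replicate 1 or 2 (adjusted p = 0.0649 and 0.0932), control day 7 replicate 1 or 2 (0.318 and 0.144) or IR day 7 replicate 1 or 2 (0.093 and 0.0922), as well as in DESeq2 (0.0623), with only the groups compared (0.0742) and on the 2 TPM scales (0.674 and 0.563). The effect of irradiation at day 7 less that at day 4 was -0.59 ± 0.31 (adjusted p = 0.252). The antisense gene annotated across Slco2a1, Gm47468, held 1 read in all 8 libraries.

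Hpgd (ENSMUSG00000031613) encodes 15-hydroxyprostaglandin dehydrogenase, which oxidises prostaglandin E2 to an inactive form. It was at 118 and 119 CPM in IR and 18.7 and 22.7 CPM in control organoids at day 4. At day 7 it was at 53.2 and 46.0 CPM in IR and 28.2 and 27.5 CPM in control organoids. All 4 IR libraries were above all 4 control libraries. The fold change was 5.7 at day 4 (95% interval 4.76 to 6.83, adjusted p = 5.43e-07) and 1.78 at day 7 (1.49 to 2.14, adjusted p = 0.00394). The effect at day 7 less that at day 4 was -1.68 ± 0.16 on the log2 scale (adjusted p = 0.000725).

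In IR organoids the level of Hpgd at day 7 was 0.419 of that at day 4 (0.353 to 0.497, adjusted p = 8.1e-05), and in control organoids it was at 28.2 and 27.5 CPM at day 7 and 18.7 and 22.7 CPM at day 4 (log2 fold change 0.42 ± 0.12, adjusted p = 0.0971). The day 4 call, the call between the effects and the call between the IR days held in every alternative run, and the day 7 call ended without control day 7 replicate 1 or 2 (adjusted p = 0.0548 and 0.0621). An unnamed transcript annotated on the same strand within Hpgd, Gm45540, held 98 reads in all 8 libraries, 66 in IR and 32 in control libraries, against 3093 reads of Hpgd in IR and 1153 in control libraries.

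Ptger4 (ENSMUSG00000039942) encodes EP4, a receptor for prostaglandin E2 that raises cyclic AMP. It was at 6.99 and 9.25 CPM in IR and 5.45 and 6.71 CPM in control organoids at day 4, and at 13.5 and 11.8 CPM in IR and 10.5 and 8.46 CPM in control organoids at day 7. IR libraries were higher within each day, by less than the test could call: the fold was 1.33 at day 4 (95% interval 0.948 to 1.86, adjusted p = 0.173) and 1.34 at day 7 (0.969 to 1.84, adjusted p = 0.239). Between the days the level in IR organoids was 1.56-fold higher at day 7 (1.12 to 2.16, adjusted p = 0.0421). That call ended without IR day 4 replicate 1 (adjusted p = 0.16), IR day 7 replicate 1 or 2 (0.188 and 0.0912) or control day 7 replicate 1 or 2 (0.059 and 0.0576), as well as in DESeq2 (0.143), under the stricter filter (0.0512) and with only the groups compared (0.0501). In control organoids the level at day 7 was 1.55-fold that at day 4 and did not pass (1.11 to 2.15, adjusted p = 0.158). Ttc33 is annotated on the opposite strand across Ptger4, held 904 reads, and was called in none of the 5 comparisons; the strand setting of the counting is not given in the sources used here.

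**Figure D3:**
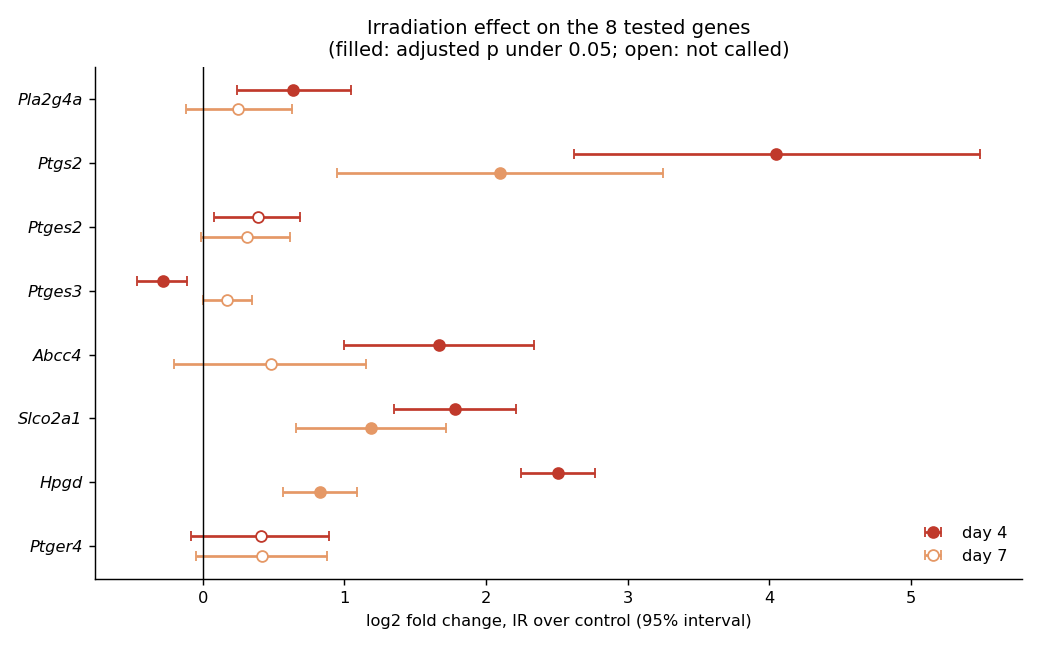
Log2 fold change of IR over control organoids at day 4 and day 7 for the 8 tested prostaglandin genes, with 95% intervals, from 2 libraries per group. Filled points passed adjusted p under 0.05: 6 genes at day 4, with Ptgs2 at 4.05 and Ptges3 at -0.28, and 3 genes at day 7, with Hpgd at 0.83.

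The same 8 genes were compared between the days in 3 ways. The effect of irradiation differed between day 7 and day 4 in 2 of 8, Hpgd (lower at day 7) and Ptges3 (higher at day 7), and 10.1% of all genes were called, 4.60% higher and 5.51% lower. In control organoids, day 7 against day 4, Pla2g4a rose and Slco2a1 fell, and 2.72% of all genes were called, 1.25% higher and 1.46% lower. In IR organoids, day 7 against day 4, Pla2g4a, Ptger4 and Ptges3 rose and Hpgd and Slco2a1 fell, and 33.0% of all genes were called, 14.7% higher and 18.3% lower. The libraries of the days did not overlap for 8 of 8 genes in control organoids (52.5% of all genes) and 7 of 8 in IR organoids (69.7% of all genes). These comparisons share libraries with each other and with the comparisons of IR against control.

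Over both days, the 4 IR libraries lay above the 4 control libraries for 4 of the 8 tested genes, Ptgs2, Ptges2, Hpgd and Abcc4, and also for Ptgs1, which was below the minimum for the test. For the tested genes this order was found in 12.5% of all genes, and a separation in either direction in 23.0%. Slco2a1 overlapped by its IR libraries of day 7 (6.02 and 6.38 CPM) and control libraries of day 4 (6.14 and 5.49 CPM), and the 4 and 4 libraries also overlapped for Pla2g4a, Ptger4 and Ptges3.

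Enterocyte markers were higher in IR organoids at day 4, as Ptgs2, Hpgd, Slco2a1, Abcc4 and Pla2g4a were, while Ptges3 was lower. All 18 listed markers were called higher in IR organoids at day 4 and 9 of 18 at day 7, and their summed level was 15300 to 24000 CPM in IR and 4610 to 4980 CPM in control organoids at day 4, then 6330 to 6350 CPM in IR and 4190 CPM in both control libraries at day 7; none was at 0. Between the IR days 17 of 18 were lower and 1 higher at day 7, where Hpgd and Slco2a1 were lower and Pla2g4a, Ptger4 and Ptges3 higher. The 6 fetal-like regenerative markers were all called higher at day 4, and 0 of 6 at day 7 by edgeR (3 at an unadjusted p under 0.05, 1 by DESeq2), with sums of 207 to 581 CPM in IR and 13.6 to 27.4 CPM in control organoids at day 4, then 279 to 281 CPM in IR and 77.9 to 78.9 CPM in control organoids at day 7. Crypt base stem cell markers summed to 2000 to 2120 CPM in IR and 3210 to 3280 CPM in control organoids at day 4; at day 7 they summed to 3220 to 3300 CPM in IR and 4600 to 4690 CPM in control organoids. Of the 10, 2 were higher and 5 lower at day 4 and 1 higher and 4 lower at day 7. The part of these cell markers in the levels of Ptgs2, Hpgd, Slco2a1 and Abcc4 was not tested.

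Immune cells are another known source of Ptgs2 and prostaglandins. Of 14 immune markers 5 could be tested; Csf1r, Itgam and Lyz2 were higher and Kit lower in IR organoids at day 4. The 14 markers summed to 31.0 to 31.9 CPM in IR and 39.0 to 40.4 CPM in control organoids at day 4, and Kit was most of the sum. Without Kit the markers summed to 11.2 to 12.8 CPM in IR and 4.52 to 6.58 CPM in control organoids at day 4, while at day 7 the sum was 5.51 to 7.1 CPM in IR and 5.8 to 6.07 CPM in control organoids. The macrophage marker Adgre1, together with Itgax and Cpa3, was at 0 in all 8 libraries. The mesenchymal markers summed to 1.87 to 3.6 CPM and the endothelial markers to 1.4 to 5.44 CPM over all libraries. The 2 mesenchymal markers tested did not pass on either day, and of the 3 endothelial ones 1 was higher and 1 lower at day 4. The part of such cells in the Ptgs2 level was not tested.

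For each member called in IR against control, the genes of most similar profile were taken by Pearson correlation of log2 CPM over the 8 libraries among 9957 genes; libraries of 1 group share their treatment and day. The closest were Bcl6 for Ptgs2 (r = 0.993), Rab31 and Apoc2 for Hpgd (both 0.991), Xpnpep2 for Slco2a1 (0.995), Nsf for Abcc4 (0.992), Ccdc3 for Pla2g4a (0.991) and Rpl27 for Ptges3 (0.978).

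A second list held other genes of the prostaglandin pathway: further phospholipases A2, the synthases of other prostanoids, reductases, receptors, transporters and oxidising enzymes. Of 42 distinct genes 30 could be tested. At day 4, 12 were higher and 2 lower in IR organoids and 16 did not pass, with a median log2 fold change of 0.14 (all genes 0.00), where 20.0% of all genes were higher and 16.5% lower; at day 7, 3 were higher and 27 did not pass, with a median of 0.13, where 4.70% of all genes were higher. The receptor genes Ptger2, Ptgdr and Ptgir were at 0 in all 8 libraries. The day 7 count was 1 without either control or either IR library of day 7, 5 without IR day 4 replicate 1 and 6 without IR day 4 replicate 2.

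Secreted phospholipases A2 went both ways. Pla2g2a, whose coding sequence is known to be disrupted in C57BL/6 mice, was at 4.19 and 3.7 CPM in IR and 0.256 and 0.244 CPM in control organoids at day 4 (log2 fold change 3.92 ± 0.51, adjusted p = 0.000263). Pla2g5 was at 3.76 and 3.92 CPM in IR and 1.02 and 0.914 CPM in control organoids (1.98 ± 0.36, adjusted p = 0.00182). Pla2g1b, the pancreatic-type enzyme, was at 0.323 and 0.327 CPM in IR and 3.66 and 3.72 CPM in control organoids (-3.46 ± 0.50, adjusted p = 0.000526). None of these 3 passed at day 7, where the log2 fold changes were -0.19 ± 0.56 (Pla2g2a), -0.67 ± 0.32 (Pla2g5) and -0.88 ± 0.44 (Pla2g1b).

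An oxidising enzyme and an efflux transporter were among the higher genes. Cyp4f14, a mouse hydroxylase of leukotriene B4 and related lipids, was at 345 and 516 CPM in IR and 54.4 and 38.9 CPM in control organoids at day 4 (log2 fold change 3.21 ± 0.23, adjusted p = 0.000124) and at 131 and 138 CPM in IR and 48.8 and 51.0 CPM in control organoids at day 7 (1.43 ± 0.23, adjusted p = 0.0155). The apical efflux pump Abcc2 rose at day 4 (1.32 ± 0.09, adjusted p = 6.21e-06). Also called at day 7, and named outside the rule for named genes, was Ptgr1, which reduces prostaglandins and leukotriene B4 (0.38 ± 0.09, adjusted p = 0.0248).

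**Figure D4:**
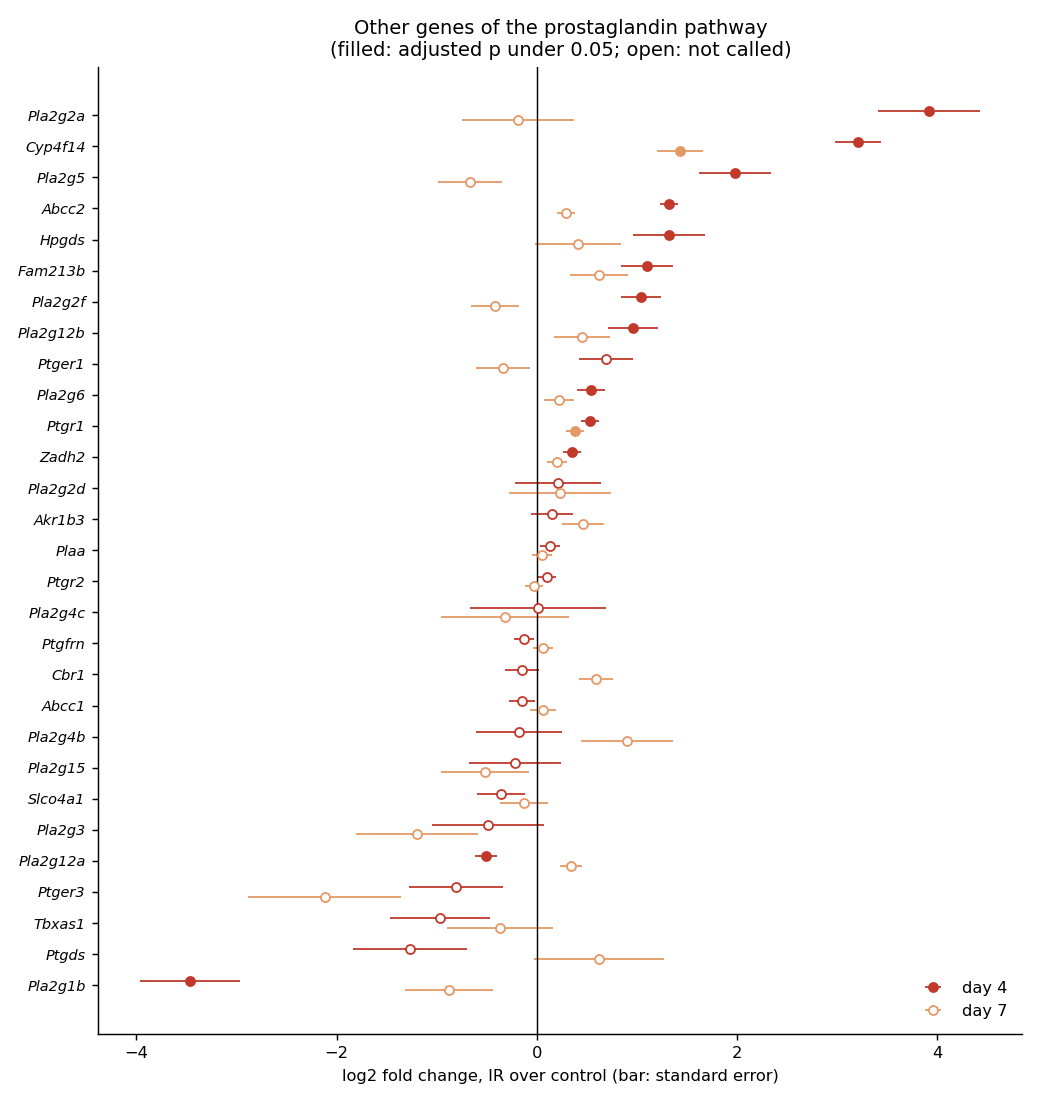
Log2 fold change of IR over control organoids, with standard errors, at day 4 and day 7 for 29 genes of the second prostaglandin list, ordered by the day 4 value, 2 libraries per group. Filled points passed adjusted p under 0.05: 13 genes at day 4, from Pla2g1b at -3.46 to Pla2g2a at 3.92, and 2 at day 7.

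The same precursor feeds the lipoxygenase branch, which makes leukotrienes. Of 21 genes of that branch 10 could be tested, of which 4 were higher and 1 lower in IR organoids at day 4 and 3 higher at day 7, with medians of 1.05 and 0.85, where 36.5% and 8.65% of all genes were called. Dpep1, which trims leukotriene D4, was at 76.4 and 157 CPM in IR and 4.6 and 3.41 CPM in control organoids at day 4 (log2 fold change 4.88 ± 0.41, adjusted p = 0.000342). Ggt1, which trims leukotriene C4, was at 55.2 and 143 CPM in IR and 4.52 and 3.54 CPM in control organoids (4.63 ± 0.56, adjusted p = 0.00248). Both are brush border enzymes of broader substrate range. Mgst2, a leukotriene C4 synthase, rose at day 4 and day 7 (1.70 ± 0.11 and 0.98 ± 0.11, adjusted p = 4.72e-06 and 0.000993), the leukotriene receptor Ltb4r2 at day 4 (2.47 ± 0.54, adjusted p = 0.00537), and Mgst3 and the transporter Abcc3 at day 7 (0.73 ± 0.11 and 1.10 ± 0.23, adjusted p = 0.00424 and 0.0384). The gene called lower at day 4 by edgeR, Alox12b (-2.67 ± 0.74, adjusted p = 0.0172), is named outside the rule. DESeq2 called 0 genes of this list lower at day 4.

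A last list held known inducers of Ptgs2 and genes that respond to prostaglandin E2, 27 in all. Of the 23 tested, 6 were higher and 3 lower in IR organoids at day 4, and 2 were higher at day 7, with medians of -0.05 and -0.02; these counts are near the shares called over all genes, 36.5% at day 4 and 8.65% at day 7. Fosl1, a subunit of the AP-1 transcription factor, had 48 and 27 reads in IR and 0 and 1 in control organoids at day 4 (adjusted p = 0.000159) and 19 and 12 reads in IR and 1 and 2 in control organoids at day 7 (adjusted p = 0.0185). Areg, an EGF receptor ligand, was at 181 and 234 CPM in IR and 48.4 and 81.0 CPM in control organoids at day 4 (log2 fold change 1.67 ± 0.24, adjusted p = 0.00245) and rose by 1.56 ± 0.26 at day 7 (adjusted p = 0.0191). Nfkb2 and Nfkbia, of the NF-kappa B pathway, rose at day 4 by 0.80 ± 0.16 and 0.75 ± 0.20 (adjusted p = 0.00278 and 0.017).

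Among the classical cytokine inducers of Ptgs2, chosen here after their values were seen, Tnf was at 1.61 and 1.85 CPM in IR and 0.0852 and 0.061 CPM in control organoids at day 4 (adjusted p = 0.0019) and Il1a at 3.55 and 1.2 CPM in IR and 0.341 and 0.122 CPM in control organoids (adjusted p = 0.00706). Neither passed at day 7 (adjusted p = 0.829 and 0.3). Il1b was at 0 in all 8 libraries, and Il6 was at 0 in every library but IR day 4 replicate 2. The 3 genes that fell at day 4 were Vegfa (-1.17 ± 0.33, adjusted p = 0.0417), Creb3l1 (-0.83 ± 0.22, adjusted p = 0.0151) and, outside the rule, Creb1 (-0.55 ± 0.10, adjusted p = 0.00173). Egr1, an early-response gene, was at 209 to 264 CPM in IR and 249 to 493 CPM in control organoids at day 4 and did not pass.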

How the data were processed

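RNA of 8 organoid libraries, 4 groups of 2, was poly-A selected and sequenced from a directional mRNA kit, per the labels' protocols. The authors deposited 2 tables. Expected counts per gene, estimated and not scaled, and TPM values, scaled by the authors for length and library size, are named so per the file headers. The submitters' processing notes name RSEM 1.3.3 and STAR 2.7.3a with Trim Galore and FastQC, and the builds GRCm39 and mm10 without saying which was used. Annotation release and strand setting: not given in the sources used here.

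Expected counts were rounded (11.4% of values changed), filtered by filterByExpr (minimum count 10, minimum total 15), scaled by TMM and fitted with edgeR 4.0.16 (R 4.3.3), robust quasi-likelihood, 4 group means with 4 residual degrees of freedom, Benjamini-Hochberg adjusted over 14063 genes. CPM are TMM-scaled. Simulated counts with known fold changes were used to test the script. TPM served for levels between genes. Counts of genes below the filter were summed, with exact 95% intervals and a floor of 3 counts.

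Alternatives were DESeq2 1.42.0, its size factors, no filter, a minimum of 5 CPM in 2 libraries, limma 3.58.1 on log2(TPM + 1) and log2(TPM + 0.1), only the groups compared, a replicate block, each library left out and, added after seeing the data, no mitochondrial genes. A group left with 1 library was assumed to vary like the others. Outside the 10 genes, up to 6 called genes per list with the largest change and a mean of at least 1 CPM are named. A gene of the second list is counted but not reported here by name. The 10 genes and the lists were chosen with earlier results of these data known. Promoters, matched by symbol for all 10 genes, are from RefSeq (GRCm38.p6).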

Additional observations from a re-analysis of the deposited data

Results flagged for a closer look

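The effect of irradiation on Hpgd differed between the days. IR over control gave a log2 fold change of 0.83 at day 7 and 2.51 at day 4, a difference of -1.68 (edgeR interaction, adjusted p = 0.000725), and over the alternatives run the adjusted p ranged up to 0.0373.

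Ptges3 also differed between the days, with log2 fold changes of 0.17 at day 7 and -0.28 at day 4, a difference of 0.46 (edgeR interaction, adjusted p = 0.0314). Over the alternatives its adjusted p ranged from 0.00162 to 0.147.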

How the results depend on the processing

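Of the 40 values of the 8 tested genes in 5 comparisons, 18 were called, and 8 of these were called in every alternative; of the 22 not called, 12 were called in some alternative. The cause was not tested. Ptgs1 and Ptges had too few reads for the test. The edgeR run without the filter gave far smaller adjusted p for some genes, such as Ptgs2 at day 4 (2.26e-23, against 0.00156 in the main fit). Calls gained only in that run therefore carry little weight. On the log2(TPM + 1) and log2(TPM + 0.1) scales the median of all genes moved to -0.17 and -0.20 at day 4, 0.12 and 0.13 at day 7, 0.26 and 0.30 for the effect at day 7 less day 4, and 0.30 and 0.34 between the IR days. Shares of all genes called are given for the main fit only, so the counts from alternatives below have none beside them.

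The number of the 8 genes called at day 7 was 1 on either TPM scale, 8 with only the groups compared, and 0 to 3 with a library left out. For the effect at day 7 less day 4 it was 4 without a filter, 1 on either TPM scale and 1 to 3 with a library left out. Between the control days it was 5 without a filter, 0 on either TPM scale, 1 with only the groups compared and 0 to 3 with a library left out. Between the IR days it was 3 to 6 with a library left out. Of the other pathway genes, 8 and 6 were called at day 4 on the TPM scales; at day 7, 6 without a filter, 9 with only the groups compared and 1 to 6 with a library left out.

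These signs turned, each of a value not called. Ptges2 at day 4 was -0.01 and -0.02 on the TPM scales, and between the IR days -0.01 to 0.21 with a library left out (negative without IR day 4 replicate 1). For the effect at day 7 less day 4, Ptgs2 was 0.04 on log2(TPM + 1); Ptges2 was 0.02 without a filter, 0.40 and 0.42 on the TPM scales, and -0.16 to 0.07 with a library left out; Pla2g4a was 0.06 and 0.03 on the TPM scales; Ptger4 was -0.03 under the stricter filter and -0.17 to 0.23 with a library left out.

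After the mean log2 CPM of each group was taken off, the deviations of replicate 1 correlated between groups at -0.0355 to 0.0581 over the tested genes. The replicate numbers are therefore not taken to pair libraries. With the replicate block, Ptges2 at day 4 (0.39, adjusted p = 0.038) and Abcc4 between the IR days (-0.70, adjusted p = 0.0388) passed, and 7 of 8 genes at day 4 and 6 of 8 between the IR days were called.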
